A study of Homo sapiens with 6 samples.

Results

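The genes described here are the long intergenic noncoding RNA genes that carry a LINC name followed by a number. They were expressed in cultured human cells, labelled as endothelial, given lipopolysaccharide (LPS) and in Control cells. A gene was taken when its name had that form and its level averaged at least 0.5 FPKM (fragments scaled to transcript length and to the mapped fragments of the library) over all 6 libraries. That gave 110 genes of 1942 genes with a LINC name, in a table of 61556 annotated genes. Of the others, 1282 were listed at 0 in all 6 libraries and 550 were above 0 but under the limit. The 110 genes were chosen by the mean level, so their levels are a description. The difference between LPS and Control was not used to choose them, but 6 genes averaged at least 0.5 FPKM in the LPS libraries alone and 4 in the Control libraries alone.

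Long intergenic noncoding RNAs are made by RNA polymerase II and are usually spliced and polyadenylated like messenger RNAs, but do not encode a conventional protein. They tend to be less abundant and more restricted to certain cell types than messenger RNAs. Some act on the gene next to them, some hold proteins or other RNAs, a few contain short open reading frames, and for many no function is known. A numbered LINC symbol is the name given to such a gene before a function is assigned.

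RNA-seq was made from 3 libraries of cells given LPS, a glycolipid from the outer membrane of Gram-negative bacteria, with a dose of 1000 ng/ml and a time of 12 h, and 3 Control libraries labelled with the same time. Titles of all 6 samples name EA.hy926, a permanent line made by fusing umbilical vein endothelial cells with a lung carcinoma line, and also human umbilical vein endothelial cells (HUVECs). The study compares LPS-treated cells, as a model of sepsis in endothelium, with Control cells. Groups were read from titles, since the treatment field is the same in both, and nothing in the labels says that libraries of a group came from separate cultures. P-values therefore reflect differences among these libraries, and those can be technical ones.

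All 10 endothelial markers examined reached 0.5 FPKM, with summed levels of 436 to 565 FPKM in LPS libraries and 363 to 477 FPKM in Control libraries. Of 10 epithelial markers 4, all of them keratins, reached 0.5 FPKM. The 10 summed to 91.6 to 114.7 FPKM in LPS libraries and 125.4 to 138.3 FPKM in Control libraries, without overlap, with SFTPC at 0 and EPCAM (0.0250) and CDH1 (0.000864 FPKM on average) close to it. Fibroblast and smooth muscle markers (8 of 10) summed to 3761 to 4293 FPKM in LPS libraries and 3911 to 4264 FPKM in Control libraries. These sums were above those of the endothelial markers in every library. COL1A1 (1460), COL1A2 (1243), COL3A1 (739) and PDGFRB (79.7 FPKM on average) were among the 8. MYH11 (0.301) and DES (0.0786 FPKM on average) were not. Which cells these levels came from was not tested. Of 10 leukocyte markers 1 reached 0.5 FPKM, 6 including PTPRC were at 0, and the sums were 4.30 to 6.64 FPKM in LPS libraries and 3.70 to 7.61 FPKM in Control libraries. In bulk RNA, fewer cells of a type and less RNA per cell cannot be told apart, and the part of the epithelial difference in the results below was not tested. FPKM carries no read depth, so the depth behind each value is unknown.

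The annotation called 84 of the 110 genes lincRNA, 11 processed transcript, 7 transcribed unprocessed pseudogene, 5 antisense, 2 bidirectional promoter lncRNA and 1 transcribed unitary pseudogene (GENCODE 29, GRCh38). The word intergenic did not hold for all of them. By the spans in the deposited table, 71 overlapped no protein-coding gene, 24 overlapped one on the opposite strand and 15 on the same strand. By GENCODE 29 spans the numbers were 87, 13 and 10. The deposited span equalled that of GENCODE 29 for 22 genes. No source used here gives the counting strand, so the levels of overlapping genes are uncertain. RefSeq now gives 15 of the 110 another symbol, among them CHASERR for LINC01578, LITATS1 for LINC01137 and SWINGN for LINC00565.

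LINC genes were low beside protein-coding genes. The median of the 110 mean levels was 1.31 FPKM, against 6.44 FPKM for 12068 protein-coding genes tested with the same limit. The means ran between 0.508 and 11.1 FPKM, 70 genes reached 1 FPKM and 7 reached 5 FPKM. The 10 highest held 30.7% of the summed level. All but 1 gene were above 0 in every library, and the exception, LINC01123, was listed at 0 in LPS 2 with 0.889 and 0.823 FPKM in LPS 1 and LPS 3, against 0.883, 1.37 and 0.988 FPKM in Control libraries.

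**Figure D1:**
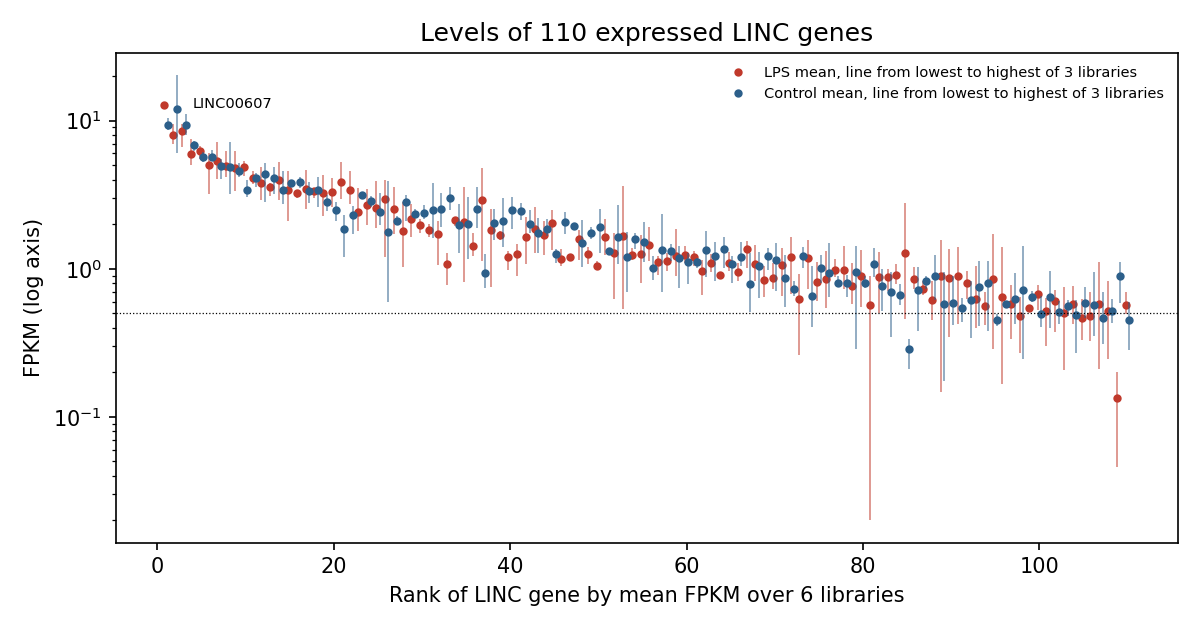
Level of each of the 110 LINC genes in FPKM (log axis) by rank of its mean, with points for the LPS and Control group means and lines from the lowest to the highest of 3 libraries. The dotted line is the limit of 0.5 FPKM, the line that reaches the axis floor of 0.02 stands for the value of 0 of LINC01123 in LPS 2, and 20 of the 110 genes have lines that do not overlap between the groups.

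LINC00607, an RNA enriched in endothelium that has been linked to the maintenance of endothelial gene expression, had the highest mean. It was at 12.8, 12.6 and 13.0 FPKM in LPS libraries, against 9.07, 8.61 and 10.4 FPKM in Control libraries. All 3 LPS values were above all 3 Control values and had an SD of 0.211 FPKM. The log2 change was 0.43 (SE 0.11), with a limma adjusted p of 0.349, and it was 0.38 to 0.51 when each library was left out. Its span on chromosome 2 (215610879 to 215848954, minus strand) contains LINC01614 on the opposite strand, which had 0.733, 1.56 and 1.25 FPKM in LPS libraries, against 1.04, 0.401 and 0.535 FPKM in Control libraries.

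LINC01578, or CHASERR, lies beside CHD2, which encodes a chromatin remodeller, and is known to hold CHD2 down in cis. It had 6.96, 9.53 and 7.47 FPKM in LPS libraries, against 6.03, 9.85 and 20.2 FPKM in Control libraries. The difference in means rested on Control 3: the log2 change was −0.41 (SE 0.38, limma adjusted p = 0.786), and 0.03 without that library. CHD2 itself had 25.6, 26.0 and 28.3 FPKM in LPS libraries, against 25.6, 18.0 and 31.9 FPKM in Control libraries, so that both genes were highest in Control 3.

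LINC00632, on the X chromosome, is the precursor of the circular RNA CDR1as. Its level was 9.52, 9.46 and 6.65 FPKM in LPS libraries, against 11.1, 8.70 and 8.06 FPKM in Control libraries, and the groups overlapped. The transcript LINC00632-211 (X, 140783292 to 140784659), which covers the place of CDR1 on the opposite strand, held 91.5% of it. Circular forms are not separated from linear ones in these tables. CDR1, as annotated on the minus strand, was listed at 1.79 ± 0.326 FPKM in LPS libraries and 1.90 ± 0.294 FPKM in Control libraries (SD, n = 3 each).

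The other 7 of the 10 highest were LINC00662, LINC00960, LINC02454, LINC00839, LINC00674, LINC00863 and LINC01013, at means of 4.14 to 6.36 FPKM. Apart from LINC01013, their groups overlapped and their log2 changes lay between −0.21 and 0.12. LINC00960 had 6.75, 6.40 and 5.55 FPKM in LPS libraries, against 5.66, 5.28 and 6.13 FPKM in Control libraries. LINC00674 shows how far single libraries could differ, with 4.16, 6.21 and 4.48 FPKM in LPS libraries, against 7.17, 4.26 and 3.18 FPKM in Control libraries.

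No LINC gene passed an adjusted p of 0.05 between LPS and Control libraries. The lowest limma adjusted p was 0.216, for LINC01235. Over all 15944 genes tested 8 passed (0.0502%), 6 higher (0.0376%) and 2 lower (0.0125%) with LPS, so a count of 0 among 110 is near that background. At an unadjusted p under 0.05 there were 14 LINC genes (12.7%), 5 higher and 9 lower with LPS, against 9.21% of all genes (4.57% higher and 4.63% lower). In 20 LINC genes (18.2%) the 3 LPS values did not overlap the 3 Control values, 6 higher and 14 lower, against 15.9% of all genes (8.13% higher and 7.76% lower). Of the 100 genes that averaged at least 0.5 FPKM in both groups, 13 were at an unadjusted p under 0.05 and 18 did not overlap. The balance of directions depended on single libraries. Among the 110 without Control 3, 5 were higher and 6 lower at that p, and 12 higher and 15 lower without overlap. Without Control 1 the numbers were 3 and 9 at that p, and 9 and 24 without overlap. Over all genes the shares were 6.7% and 23.7% without Control 3, and 8.57% and 26.1% without Control 1.

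The direction was close to even, with 50 positive and 60 negative log2 changes. Their median was −0.06, against −0.0053 over all genes tested, and they ran between −1.16 and 1.10. A change of at least 2-fold on the log2(FPKM + 0.5) scale was seen in 3 genes, LINC01235, LINC00663 and LINC00205. Summed over the 110 genes, the level was 199.5, 219.0 and 222.6 FPKM in LPS libraries, against 205.5, 209.2 and 243.4 FPKM in Control libraries, so the groups overlapped. LPS 1 was the lowest library for 27 LINC genes and Control 3 the highest for 30. For comparison, 13 known LPS and interferon response genes had 10 higher and 1 lower at an unadjusted p under 0.05. The list was drawn up with earlier results of these data known, so it is no independent check. VCAM1 was the lower one, at 24.7 ± 8.40 FPKM in LPS libraries and 37.8 ± 4.49 FPKM in Control libraries (SD, n = 3 each). IL6 was also lower without overlap (means of 6.49 and 8.22 FPKM), and CXCL8 overlapped. Of the 13 genes MX1, an interferon-induced GTPase, and ISG15, a ubiquitin-like modifier, passed the adjustment. Both calls were lost without a filter on low values (limma adjusted p = 0.304 and 0.187) and without LPS 2, LPS 3 or any 1 of the Control libraries, where the adjusted p was 0.107 to 0.166 for MX1 and 0.0586 to 0.120 for ISG15. The call of ISG15 was also lost without LPS 1 (0.0522). That of MX1 was lost with a pseudocount of 1 (0.0703) and under 3 other scalings (0.0552 to 0.0615).

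**Figure D2:**
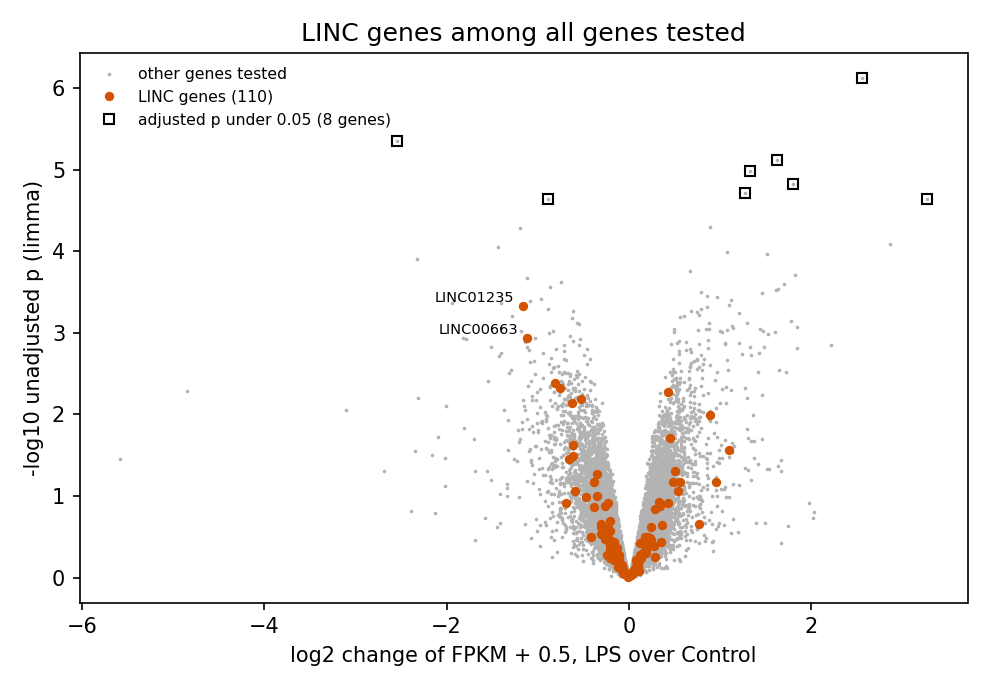
Log2 change of FPKM + 0.5 for LPS over Control (horizontal) against −log10 of the unadjusted limma p (vertical) for all 15944 genes tested, with the 110 LINC genes as orange points and the 8 genes at an adjusted p under 0.05 as squares. No LINC gene is among the squares, and LINC01235 and LINC00663 are the orange points with the lowest p.

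Among the 6 LINC genes whose LPS values lay above all Control values, 3 were at an unadjusted p under 0.05: LINC00607, LINC00511 and LINC01013. LINC00511, on chromosome 17 (72290091 to 72640472, minus strand), has been studied mostly in carcinoma, where it is linked to proliferation. It had 3.40, 2.98 and 5.24 FPKM in LPS libraries, against 2.31, 1.20 and 2.07 FPKM in Control libraries. Of the genes whose groups did not overlap at that p it had the most positive log2 change, 0.89 (SE 0.26, limma adjusted p = 0.414). LPS 3 was the highest and Control 2 the lowest library, and without either of them the log2 change was 0.68 or 0.67.

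LINC01013, on chromosome 6 (132131597 to 132169374, plus strand), has been linked to CCN2, the gene of a matricellular growth factor, in valve tissue. LINC01013 had 5.37, 4.96 and 4.24 FPKM in LPS libraries, against 3.07, 3.20 and 4.0 FPKM in Control libraries, a log2 change of 0.45 (SE 0.15, limma adjusted p = 0.444). CCN2, 180225 bases away, was also separate between the groups. Its level was 719.8, 703.8 and 727.4 FPKM in LPS libraries, against 629.8, 579.5 and 563.2 FPKM in Control libraries (log2 change 0.28, SE 0.09, limma adjusted p = 0.44). MOXD1, the coding gene nearest to LINC01013, pointed the other way, at 1.05 ± 0.482 FPKM in LPS libraries and 1.90 ± 0.371 FPKM in Control libraries (SD, n = 3 each).

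Below the unadjusted p of 0.05 but with overlapping groups stood LINC00205 and LINC02614, both outside the naming rule and picked out after their values were seen. LINC00205 had 2.81, 1.13 and 4.79 FPKM in LPS libraries, against 0.833, 0.742 and 1.25 FPKM in Control libraries. LPS 2 lay among the Control values. LINC02614 had 2.28, 1.34 and 2.51 FPKM in LPS libraries, against 1.09, 1.36 and 1.30 FPKM in Control libraries, and there too LPS 2 was the library that overlapped. LINC00205 starts 157 bases from POFUT2, a fucosyltransferase gene on the opposite strand, whose level was 26.6 ± 4.80 FPKM in LPS libraries and 26.1 ± 6.57 FPKM in Control libraries (SD, n = 3 each).

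Among the 14 LINC genes whose LPS values lay below all Control values, 9 were at an unadjusted p under 0.05. LINC01235, on chromosome 9 (13406380 to 13488125, minus strand), had the most negative log2 change on the log2(FPKM + 0.5) scale. It had 1.28, 1.20 and 0.777 FPKM in LPS libraries, against 3.04, 3.55 and 2.49 FPKM in Control libraries. The mean was 1.08 ± 0.269 FPKM in LPS libraries and 3.03 ± 0.535 FPKM in Control libraries (SD, n = 3 each), a log2 change of −1.16 (SE 0.20, unadjusted p = 0.000468, limma adjusted p = 0.216). Left-out libraries moved the log2 change between −1.27 and −1.01. Its nearest coding gene, MPDZ, a scaffold protein gene 126790 bases away, had 11.0 ± 2.60 FPKM in LPS libraries and 10.9 ± 1.57 FPKM in Control libraries.

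LINC00663, on chromosome 19 (19756394 to 19776423, minus strand), was a member through its Control level alone. It had 0.153, 0.0461 and 0.201 FPKM in LPS libraries, against 0.961, 1.11 and 0.584 FPKM in Control libraries (log2 change −1.12, SE 0.22, limma adjusted p = 0.25). With pseudocounts of 0.1 and 1 the log2 change was −2.10 and −0.73. Most of the difference was in TCONS_00177413, an assembled transcript without an Ensembl identifier, at 0, 0 and 0.000801 FPKM in LPS libraries, against 0.663, 1.04 and 0.323 FPKM in Control libraries. The deposited span of LINC00663 overlaps ZNF506 on the same strand, which the GENCODE 29 span does not. ZNF506, a zinc finger gene, had 7.17 ± 0.825 FPKM in LPS libraries and 6.05 ± 1.16 FPKM in Control libraries (SD, n = 3 each).

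LINC01133, known to bind the splicing factor SRSF6 in colorectal cancer cells, had 1.30, 0.984 and 1.33 FPKM in LPS libraries, against 1.87, 3.06 and 2.59 FPKM in Control libraries. Its log2 change was −0.81 (SE 0.20, limma adjusted p = 0.335). LINC00973 had 1.41, 0.887 and 1.46 FPKM in LPS libraries, against 2.13, 2.43 and 2.76 FPKM in Control libraries, and a log2 change of −0.76 (SE 0.19, limma adjusted p = 0.345). In both genes the highest LPS value stayed below the lowest Control value. For LINC00973 that gap was larger than the SD of either group. For LINC01133 it was larger than the SD of the LPS libraries (0.189 FPKM) but smaller than that of the Control libraries (0.603 FPKM). LINC01119 was close to these, with 1.08, 1.36 and 1.05 FPKM in LPS libraries, against 2.41, 2.10 and 1.71 FPKM in Control libraries (log2 change −0.63).

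LINC01357 had the smallest spread within groups of all 110 genes. It stood at 1.22, 1.22 and 1.15 FPKM in LPS libraries, against 2.04, 1.82 and 1.97 FPKM in Control libraries (log2 change −0.52, SE 0.14, limma adjusted p = 0.374). The lactate transporter gene SLC16A1, its nearest coding gene at 33976 bases, had 27.3 ± 1.77 FPKM in LPS libraries and 32.0 ± 0.685 FPKM in Control libraries (SD, n = 3 each). The log2 change of SLC16A1 was −0.23, with an unadjusted limma p of 0.0431 and a limma adjusted p of 0.523. LINC00910, LINC00578 and LINC01106 completed the 9, with log2 changes of −0.61, −0.61 and −0.66. Their limma adjusted p-values were 0.465, 0.502 and 0.511. The log2 change of LINC00578 was −0.38 without Control 3, and that of LINC01106 was −0.40 without LPS 2. In LINC01106 the highest LPS value, 0.918 FPKM, was just under the lowest Control value, 1.02 FPKM.

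**Figure D3:**
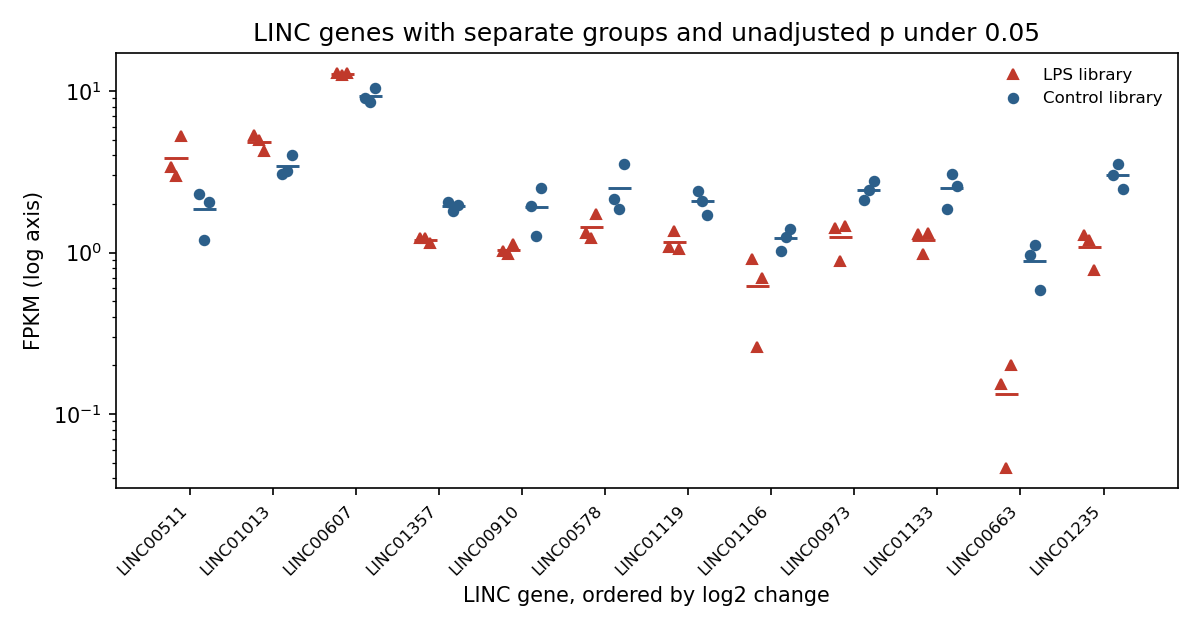
FPKM (log axis) in each library of the 12 LINC genes whose LPS and Control values did not overlap at an unadjusted p under 0.05, ordered by log2 change, with LPS libraries as triangles left of Control libraries as circles and bars for group means. LINC00511, LINC01013 and LINC00607 are higher with LPS and the other 9 lower, and LINC00663 and LINC01235 show the widest gaps.

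By the deposited spans, of the 71 LINC genes that overlapped no protein-coding gene, 13 (18.3%) were at an unadjusted p under 0.05 and 17 (23.9%) did not overlap between groups, against 1 (2.56%) and 3 (7.69%) of the 39 that did. Over all genes tested the shares were 9.21% and 15.9%. The 1 gene was LINC00663, a member through its Control level alone. By GENCODE 29 spans, 14 and 20 of the 87 without overlap stood against 0 and 0 of 23 with it. These splits were made after values were seen and have no test.

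Of 8 LINC genes listed for endothelium, 6 were found under those names, and LINC00341 and LINC00961 were not. LINC00323 was under the limit, and 5 were expressed: LINC00511, LINC00520, LINC00607, LINC01013 and LINC01235. Of these 3 were higher and 1 lower at an unadjusted p under 0.05 as given above (9.21% of all genes, 4.57% higher and 4.63% lower), and none passed the adjustment. The list was drawn up with earlier results of these data known, so this count is no independent evidence. The fifth, LINC00520, is the flow-induced RNA also called LEENE, which raises the level of the nitric oxide synthase gene NOS3 in endothelial cells. LINC00520 had 3.54, 4.56 and 2.09 FPKM in LPS libraries, against 3.88, 3.74 and 3.72 FPKM in Control libraries. The Control libraries were nearly alike and the LPS libraries lay on both sides of them. NOS3 had 9.12, 10.4 and 8.82 FPKM in LPS libraries, against 9.15, 11.4 and 7.81 FPKM in Control libraries, and the groups overlapped.

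Of 6 LINC genes listed for immune roles, 5 were found under those names. Only LINC00513 reached the limit, and 2 of the others found were at 0 in all libraries. LINC00513, known as a promoter of type I interferon signalling, had 1.89, 1.89 and 3.90 FPKM in LPS libraries, against 1.96, 2.08 and 3.25 FPKM in Control libraries (log2 change 0.02). Library 3 was the highest in both groups. An assembled transcript without an Ensembl identifier, TCONS_00332360, held 96.0% of the mean level of LINC00513. The annotated transcripts LINC00513-203 and LINC00513-201 averaged 0.0619 and 0.0240 FPKM, so the gene level says little about them. Of 7 genes listed as sources of microproteins, LINC00467, which encodes a mitochondrial peptide in colorectal cancer cells, was the one under a LINC name in the table. It had 0.950, 1.09 and 1.26 FPKM in LPS libraries, against 1.30, 0.821 and 1.51 FPKM in Control libraries.

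Of 15 LINC genes studied in carcinoma, 13 were found under those names. The limit was reached by 7: LINC00467, LINC00511, LINC00662, LINC00665, LINC00963, LINC01116 and LINC01133. At an unadjusted p under 0.05 by limma, 1 was higher (LINC00511) and 1 lower (LINC01133) with LPS. Over all genes tested the share was 9.21% (4.57% higher and 4.63% lower). This list too was drawn up with earlier results of these data known, so the count is no independent evidence. LINC01116 had 2.76, 2.98 and 4.54 FPKM in LPS libraries, against 2.51, 1.71 and 2.67 FPKM in Control libraries, without overlap and at an unadjusted limma p of 0.0668. LINC00963 had 3.73, 2.89 and 5.24 FPKM in LPS libraries, against 2.74, 2.86 and 4.58 FPKM in Control libraries, and LINC00665 averaged 0.812 ± 0.266 FPKM in LPS libraries and 1.01 ± 0.214 FPKM in Control libraries (SD, n = 3 each).

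The spread within groups was higher for LINC genes than for protein-coding genes in each of 4 level ranges, as a description. At means of 2 to 5 FPKM the median SD of log2 values within groups was 0.31 for 28 LINC genes, against 0.22 for 2900 protein-coding genes, and at 0.5 to 1 FPKM it was 0.32 (40 genes) against 0.25 (871 genes). The most variable in the LPS libraries were LINC00342, LINC02257 and LINC01023. LINC00342 had 0.535, 0.831 and 3.60 FPKM in LPS libraries, against 1.14, 0.695 and 1.76 FPKM in Control libraries. LINC02257 had 0.610, 0.456 and 2.79 FPKM in LPS libraries, against 0.209, 0.311 and 0.336 FPKM in Control libraries. LPS 3 stood well above the other libraries in both genes. LINC01023 had 0.147, 1.55 and 0.988 FPKM in LPS libraries, against 0.174, 0.615 and 0.952 FPKM in Control libraries, where library 1 was low in both groups.

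In the Control libraries the most variable were LINC01615, LINC01578 and LINC01786. LINC01615 had 3.97, 3.73 and 1.20 FPKM in LPS libraries, against 0.60, 0.831 and 3.89 FPKM in Control libraries, so that a high and a low level occurred in each group. LINC01786 had 0.523, 0.648 and 0.268 FPKM in LPS libraries, against 0.247, 1.43 and 0.465 FPKM in Control libraries. Across the 110 genes, correlations of log2 values between pairs of libraries were 0.735 to 0.902, against 0.961 to 0.974 across all genes tested. The 110 means reached only 11.1 FPKM, while all genes tested include COL1A1 at a mean of 1460 FPKM. A narrower range of levels lowers such a correlation, and the ranges were not matched, so these correlations cannot be compared directly. Genes are not independent replicates.

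At the limit itself, LINC01572 (0.508), LINC00663 (0.510), LINC01426 (0.522) and LINC00893 (0.523 FPKM on average) were just inside. LINC01048 (0.487), LINC01521 (0.485), LINC01547 (0.468) and LINC02029 (0.465 FPKM) were just outside.

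Transcripts showed where some gene levels came from. The 110 genes had 1846 listed transcripts, 1337 with an Ensembl identifier and 509 assembled by the authors, and 1129 were above 0 in some library. The assembled ones held 38.9% of the summed level. A gene had a median of 11 transcripts, with 118 for LINC00511, and the leading transcript held a median of 40.1%. Of 101 transcripts tested in 61 genes, 0 passed an adjusted p of 0.05 by limma, where 0.098% of all 35727 transcripts did (0.0392% higher and 0.0588% lower). At an unadjusted p under 0.05 there were 3 higher and 1 lower (3.96%), against 5.77% of all transcripts (2.85% higher and 2.92% lower). The groups did not overlap in 14, where 12.4% of all transcripts did not (6.18% higher and 6.24% lower). These counts carry a limit, since 31 of the 101 averaged at least 0.5 FPKM in 1 group only. By that rule such a transcript had to have the higher mean in that group, by a small or a large amount. Among the 70 that averaged at least 0.5 FPKM in both groups, 0 were at an unadjusted p under 0.05 by limma and 6 did not overlap.

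The 1 lower transcript was LINC01357-202. It was listed at 0 in all 3 LPS libraries, against 1.57, 1.51 and 1.30 FPKM in Control libraries (limma adjusted p = 0.112), and was tested through its Control level alone. LINC01357-201 pointed the other way, with 0, 0.865 and 1.06 FPKM in LPS libraries, against 0, 0 and 0.0999 FPKM in Control libraries. LPS 1 was at 0 for both transcripts. By the annotation LINC01357-202 has 3 exons and 587 bases and LINC01357-201 has 2 exons and 490 bases. Besides their ends they differ by an exon of 45 bases at chr1:112876940-112876984 (GRCh38, plus strand), transcript positions 401 to 445 of LINC01357-202. LINC01357-203 had 0.573, 0.360 and 0.0937 FPKM in LPS libraries, against 0.235, 0.167 and 0.350 FPKM in Control libraries. Levels are given for whole transcripts, so the level of the exon itself was not measured. The exon is part of the difference between the transcript at 0 with LPS and the one seen in 2 of the 3 LPS libraries. It is shown in capitals with 30 bases of the transcript on each side (GENCODE 29 transcript sequence).
LINC01357-202: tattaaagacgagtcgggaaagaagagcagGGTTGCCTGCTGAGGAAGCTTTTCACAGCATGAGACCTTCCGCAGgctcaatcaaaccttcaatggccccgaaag

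The 3 higher transcripts at an unadjusted p under 0.05 were LINC00960-206, LINC00839-207 and TCONS_00143868 of LINC00674, each from a gene whose own groups overlapped. All 3 averaged under 0.5 FPKM in Control libraries and were tested through their LPS level alone, so their values are a description. LINC00960-206 had 1.36, 1.36 and 0.981 FPKM in LPS libraries, against 0.368, 0.389 and 0.183 FPKM in Control libraries. LINC00839-207 had 1.09, 1.13 and 1.10 FPKM in LPS libraries, against 0.179, 0.655 and 0.421 FPKM in Control libraries. TCONS_00143868 had 1.04, 1.68 and 1.88 FPKM in LPS libraries, against 0.490, 0.405 and 0.587 FPKM in Control libraries.

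LINC01578-207 gave the high level of LINC01578 in Control 3. It stood at 15.3 FPKM there, at 0.345 FPKM in LPS 2 and at most 0.00556 FPKM in the other 4 libraries. The transcript LINC01578-202 had 2.18, 1.82 and 2.65 FPKM in LPS libraries, against 2.02, 2.20 and 2.83 FPKM in Control libraries, and LINC01578-209 was lowest in Control 3 (0.0737 FPKM).

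**Figure D4:**
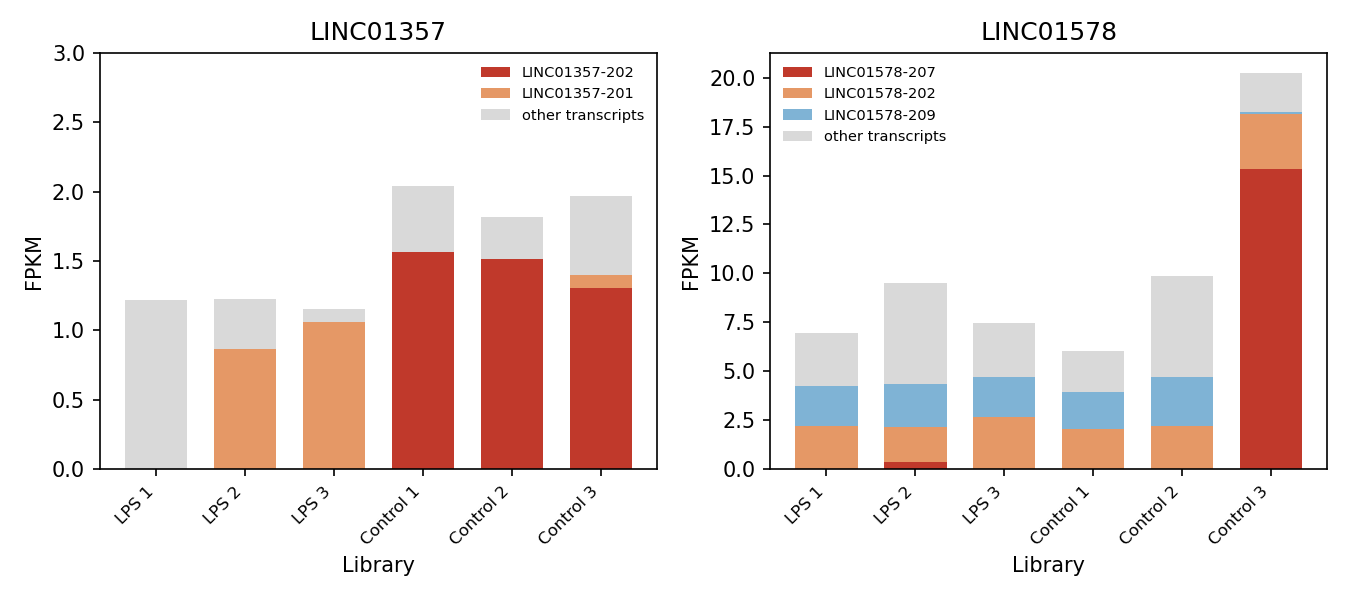
FPKM per library of the leading transcripts of LINC01357 (left) and LINC01578 (right), stacked so that the bar height is the gene level, with LPS libraries left of Control libraries. LINC01357-202 fills most of each Control bar and is at 0 in LPS bars, and LINC01578-207 stands at 15.3 FPKM in Control 3.

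LINC genes and the protein-coding genes nearest to them shared a direction about as often as not. Of the 110, 85 had a nearest coding gene that was tested (81 distinct genes), and in 42 of these (49.4%) both log2 changes had the same sign. Across these 85 pairs Spearman's rho was 0.0181 and Pearson's r 0.00563, both within the same 6 libraries and given as a description. Among all 110 LINC genes, the 71 that overlapped no coding gene lay at a median distance of 25817 bases from the nearest one. In 73 of the 110 the neighbour had the higher mean level.

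**Figure D5:**
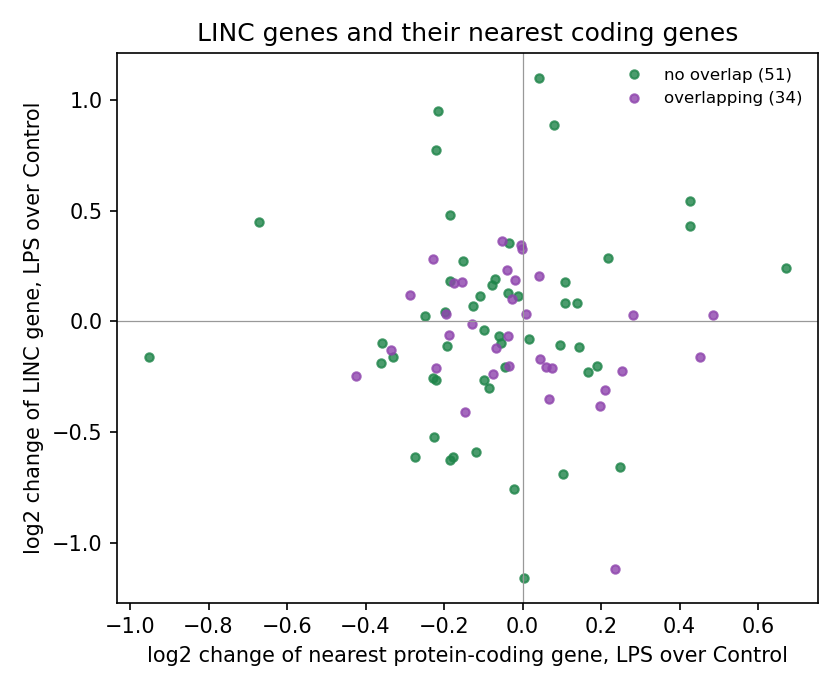
Log2 change for LPS over Control of 85 LINC genes (vertical) against that of their nearest protein-coding gene (horizontal), with pairs that overlap (34) in purple and others (51) in green. The points spread over all quadrants without a trend.

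By RefSeq transcription starts, 10 LINC genes had a coding gene on the opposite strand starting within 1000 bases. Of 7 with a partner that was found under its RefSeq symbol and tested, 4 had the same sign. EOLA1 and EOLA2, the partners of LINC00893 and LINC00894, were not found under those symbols. Partners listed under other names were not counted, so more may have been tested. A pair with a tested partner was picked out after values were seen. LINC01137 (LITATS1), an RNA known to restrain TGF-beta signalling, starts 137 bases from ZC3H12A, the gene of an RNase that degrades inflammatory messenger RNAs. ZC3H12A averaged 8.75 ± 1.60 FPKM in LPS libraries and 5.26 ± 0.252 FPKM in Control libraries, and LINC01137 averaged 0.677 ± 0.136 FPKM in LPS libraries and 0.496 ± 0.137 FPKM in Control libraries (SD, n = 3 each). Their log2 changes were 0.67 and 0.24. LINC01137 was a member through its LPS level alone, so its higher level with LPS is a description. LINC01184 starts 591 bases from SLC12A2, an ion cotransporter gene, and the signs differed, at −0.16 for LINC01184 and 0.45 for SLC12A2.

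RefSeq promoter windows, which hold 250 bases before and 50 after a start, were found for 88 of the 110 genes (106 windows, GRCh38.p14). Their median GC content was 58.8%, against 58.7% of all 35116 windows. The AP-1 motif TGANTCA, searched on both strands like the others, was in 13 windows (12.3%), against 7.71% of all windows. The TATA box TATAAA was in 17 (16.0%), against 11.5%. The NF-kB motif (GGG and TTCC with 3 bases of any kind between them) was in 1 window, that of LINC00472 (0.943%), against 6.52%, and the interferon response motif (GAAA repeated after 2 bases of any kind) was in 4 (3.77%), against 3.57%. A match is a run of letters and not a shown binding site. The windows of LINC00607 (chr2:215843487-215843786, minus strand), LINC00511 (chr17:72640423-72640722, minus strand), LINC01133 (chr1:159960974-159961273, plus strand) and LINC00973 (chr3:98980805-98981104, plus strand) are shown because these genes were among those with separate groups, 2 higher and 2 lower with LPS. They were picked after values were seen, and in each direction 1 of the pair holds the AP-1 motif, in capitals. Some genes have more than 1 window, and 1 is shown per gene. LINC00973 has the TATA box in a window that is not shown. The windows of LINC00511, at 78.0% G and C, and of LINC01133 hold none of the 4 motifs.
LINC00607: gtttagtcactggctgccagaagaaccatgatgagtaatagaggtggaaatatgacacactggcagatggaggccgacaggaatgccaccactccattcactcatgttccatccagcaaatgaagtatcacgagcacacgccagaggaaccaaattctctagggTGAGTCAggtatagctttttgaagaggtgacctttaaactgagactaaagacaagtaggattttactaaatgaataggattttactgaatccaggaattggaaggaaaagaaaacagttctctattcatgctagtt
LINC00511: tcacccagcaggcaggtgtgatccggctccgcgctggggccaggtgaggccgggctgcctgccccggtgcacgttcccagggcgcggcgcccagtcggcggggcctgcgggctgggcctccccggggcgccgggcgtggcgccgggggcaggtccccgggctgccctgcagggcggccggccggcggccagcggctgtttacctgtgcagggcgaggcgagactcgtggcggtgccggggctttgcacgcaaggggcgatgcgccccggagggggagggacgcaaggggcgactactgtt
LINC01133: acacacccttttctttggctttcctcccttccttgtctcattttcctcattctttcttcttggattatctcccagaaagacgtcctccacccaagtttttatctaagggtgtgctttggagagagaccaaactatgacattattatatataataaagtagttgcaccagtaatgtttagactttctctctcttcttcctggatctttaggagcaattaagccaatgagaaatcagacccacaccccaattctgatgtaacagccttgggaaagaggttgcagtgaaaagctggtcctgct
LINC00973: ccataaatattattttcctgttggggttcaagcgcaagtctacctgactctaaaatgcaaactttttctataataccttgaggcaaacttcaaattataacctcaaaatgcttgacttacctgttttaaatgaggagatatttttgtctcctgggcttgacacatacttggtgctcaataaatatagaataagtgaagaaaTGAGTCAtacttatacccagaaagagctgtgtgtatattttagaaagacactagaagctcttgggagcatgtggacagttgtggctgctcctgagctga

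Other classes of long noncoding RNA were counted in the same fit. Of 410 tested genes with antisense names, 12 were higher and 19 lower at an unadjusted p under 0.05 (7.56%), against 9.21% of all genes (4.57% higher and 4.63% lower). Of 29 divergent transcripts 1 was higher and 2 lower, of 23 small nucleolar RNA host genes 0 and 1, and of 22 microRNA host genes 0 and 0. Of 16 well-studied long noncoding RNAs 0 were higher and 2 lower. In none of these classes did a gene pass the adjustment by limma. Whether any class differed from the LINC genes was not tested.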

How the data were processed

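RNA-seq of 3 LPS and 3 Control libraries was used as the FPKM tables deposited by the authors for genes, transcripts and lncRNA transcripts, where FPKM scales fragments to transcript length and mapped fragments. Per the submitters' processing notes, the tools were HISAT2 and StringTie, with no version. The same notes name the mouse build mm9, while the tables hold human identifiers at GRCh38 coordinates, which are given here. No source used here gives read counts, the counting strand or the options. The table of protein-coding transcripts was not used.

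Only 28.9% to 33.6% of low values per library were whole multiples of the commonest step (tolerance 0.02), so no reads could be recovered and the depth is unknown. If that step were 1 fragment, relative depth would be 83.4% to 100% of the deepest library. Summed FPKM of all genes was 427920 to 483345 per library, with 26436 to 27944 genes above 0. No pair of libraries shared more than 0.00814% of values.

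Genes and transcripts that averaged 0.5 FPKM or more were compared by limma (version 3.58.1, R version 4.3.3) on log2(FPKM + 0.5), with the group alone, eBayes with a mean-variance trend, two-sided p-values and Benjamini-Hochberg adjustment over all features of a table. Fold changes on this scale understate changes of low genes. Adjusted p under 0.05 was the threshold. An exact permutation of 3 against 3 libraries cannot go below p = 0.1, so none was used. The procedure was tested on simulated data.

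The rule for named genes takes called members, up to 10 rises and 10 falls without overlap at an unadjusted p under 0.05, the 10 highest, members of short lists by studied role, 4 genes on each side of the limit and the 3 most variable genes per group. Members and lists were chosen with earlier results of these data known. Gene names and spans were compared with GENCODE 29 and sequences are from GENCODE 29 and RefSeq. Alternatives were other pseudocounts, filters, scalings, library weights, robust eBayes, a replicate block and leaving out each library.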

Additional observations from a re-analysis of the deposited data

How the results depend on the processing

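No LINC gene and no LINC transcript passed the adjustment by limma under any of 16 alternatives, and the lowest adjusted p among LINC genes ranged from 0.179 with library weights to 0.474 without a filter, where 0 of all genes passed and 12 LINC genes and 2196 of all genes were at an unadjusted p under 0.05. LINC genes at an unadjusted p under 0.05 numbered 11 to 15, against 14 as reported. With a minimum of 1 FPKM only 70 LINC genes were tested, 11 (15.7%) at that p and 15 (21.4%) without overlap. Over all genes the shares at that filter were 9.63% and 16.4%. LINC genes without overlap numbered 15 to 22 under other scalings and filters, against 20 as reported. They numbered 27 to 33 when each library was left out, where 23.7% to 28.2% of all genes did not overlap. The count moved past 1.5 times without LPS 2 (32), without LPS 3 (33) and without Control 1 (33), since fewer libraries leave more room for separation. The median log2 change was −0.11 to −0.04 under other settings and −0.0868 to −0.000645 when each library was left out.

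Replicate numbers do not pair the libraries by the labels. Deviations of same-numbered libraries correlated at 0.0260, 0.121 and 0.0926, and every library correlated best with its own number, which is a hint from the data and not from the design. With a replicate block 0 LINC genes and 0 of all genes passed the adjustment by limma, with 15 LINC genes and 1736 of all genes at an unadjusted p under 0.05.

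Of 535 values of 34 named genes 505 kept their direction and 30 in 15 genes reversed. With library weights 4 reversed, to −0.026 for LINC00674, −0.028 for LINC00513, −0.074 for LINC00342 and 0.051 for LINC01426. When each library was left out the log2 change spanned 0 for LINC01578 (−0.80 to 0.034), LINC00632 (−0.21 to 0.042), LINC02454 (−0.35 to 0.061), LINC00839 (−0.13 to 0.25), LINC00674 (−0.17 to 0.36), LINC00863 (−0.17 to 0.23), LINC00963 (−0.0094 to 0.40), LINC00520 (−0.40 to 0.080), LINC00513 (−0.27 to 0.21), LINC00342 (−0.49 to 0.51), LINC00467 (−0.26 to 0.046), LINC01023 (−0.069 to 0.76), LINC01786 (−0.50 to 0.19), LINC00893 (−0.22 to 0.36) and LINC01426 (−0.25 to 0.17). The cause was not tested. None of the 12 genes plotted as separate at an unadjusted p under 0.05 reversed, but 3 moved by over 1.5 times: LINC00663 with other pseudocounts, LINC00578 without Control 3 (−0.38) and LINC01106 without LPS 2 (−0.40) and with a pseudocount of 0.1 (−0.99). Unknown depth limits what can be said of genes near 0.5 FPKM.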
